A study of Mus musculus with 8 samples.

Results

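The 33 genes described here encode the signalling chains of the B cell receptor, its co-receptors, and the kinases, adaptors, enzymes and exchange factors that carry its signal. They were chosen by name from what is known of the pathway, with earlier results of these data known. Their shares beside those of all genes are therefore descriptive and not an independent test. All 33 were on the array, and 32 of them were among the 19975 genes tested. Vav3 was not tested, because it was not well above background on any of the 8 arrays.

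The cells were A20, a mouse B lymphoma line of mature B cell type, in 4 lines with 2 arrays each. They were the IgE+ stable transfectants clone 41 and clone 18, a stable transfectant carrying membrane IgM, and untransfected A20 cells. All 4 share the A20 background, a line that makes a surface IgG of its own, and the IgM line stands for a transfectant with another receptor class. Each IgE line is 1 clone and the IgM cells are 1 transfectant line, so the receptor and the history of a line cannot be told apart. It is not stated that the 2 arrays of a line are separate cultures. The p-values therefore reflect array-to-array spread, which may be technical.

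When antigen binds the B cell receptor, Src family kinases phosphorylate the tails of its Ig-alpha and Ig-beta chains, and Syk docks there. Syk and Btk then act through the scaffold BLNK on phospholipase C gamma 2, which drives calcium and NFAT, Ras exchange factors and the protein kinase C route to NF-kB. Co-receptors set the strength of the signal: CD21 and CD81 raise it, and CD22, CD72 and CD5 restrain it through phosphatases.

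Signals are given as log2 of the spot's processed intensity minus the array's 75th percentile, which ran from 474 to 524 intensity units on the IgE arrays and from 584 to 664 on the control arrays. Between 49.7% and 58.9% of spots were well above background. The spread between the arrays of a line (SD of the log2 difference over genes) was 0.42 to 0.50 in the IgE and IgM lines and 0.74 in untransfected cells. To be called, a gene needed an adjusted p under 0.05 (limma, Benjamini-Hochberg over all 19975 genes) and a 2-fold or larger change. The 8 B cell markers, Ms4a1 and Cd79a among them, were well above background in every line. Of the markers of other cells, the 5 of mast cells and basophils were not above background on both arrays of any line, nor were the T cell genes Cd3d and Cd8a or the myeloid genes Lyz2 and Cd14. Other genes on those lists were: 4 to 5 of 7 T cell markers, 5 of 7 myeloid markers (summed linear signal 44.4 to 69.3) and 4 to 5 of 5 plasma cell markers were well above background in a line. Of the 5 stromal and erythroid markers, 2 were tested. Their summed signal was 2.81 to 3.7 in clone 41 and 13.9 to 14.8 in clone 18. In IgM cells it was 0.53 to 0.569, and in untransfected cells 4.5 to 10.9. Col1a1 and Col3a1 were not above background on both arrays of any line. The part of these markers in the results was not tested. Probes bearing on the transfected chains were read, but they do little to check the labels. The mu constant probe was highest in IgM cells (4.88 and 4.64, with the other 6 arrays at 3.65 to 4.29), but the epsilon probe (Ighe) did not separate the IgE lines, at -0.13 to 0.48 against -1.21 to 1.02 on the control arrays (difference 0.38 ± 0.29, adjusted p = 0.408). Both IgM arrays were above the other 6 for 9.1% of all genes, so the mu probe is a weak check. Whether these probes match the transfected sequences is not stated.

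In the IgE lines, 6 of the signalling genes were lower than in the control lines and none was higher. They were the complement receptor gene Cr2, the inhibitory receptor genes Cd5 and Cd72, the kinase gene Fyn, and the adaptor genes Bank1 and Dok3. These 6 of 32 are 18.8% of the genes tested here, where 8.99% of all genes were called, 5.59% lower and 3.4% higher. Of the 6, Cd72, Bank1 and Dok3 were called in both clones against IgM cells and in neither against untransfected cells. Against untransfected cells, 1 of the 32 was called in clone 41 and 4 in clone 18, where 5.6% and 7.69% of all genes were. In bulk RNA, fewer cells that express a gene and less RNA per cell cannot be told apart. The median difference over the 32 genes was -0.09 on the log2 scale, with 20 below 0, against 0.04 over all genes tested, 9195 of which were below 0. The median of the 32 rested on single arrays: it was 0.05 without untransfected replicate 1 and -0.25 without untransfected replicate 2. By adjusted p alone 11 of the 32 passed, 9 lower and 2 higher, where 17.8% of all genes passed. The 5 added ones were Cd79a, Blk and Blnk, which were lower, and Rasgrp3 and Malt1, which were higher, all by less than 2-fold as measured (Blnk was saturated in IgM cells).

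**Figure D1:**
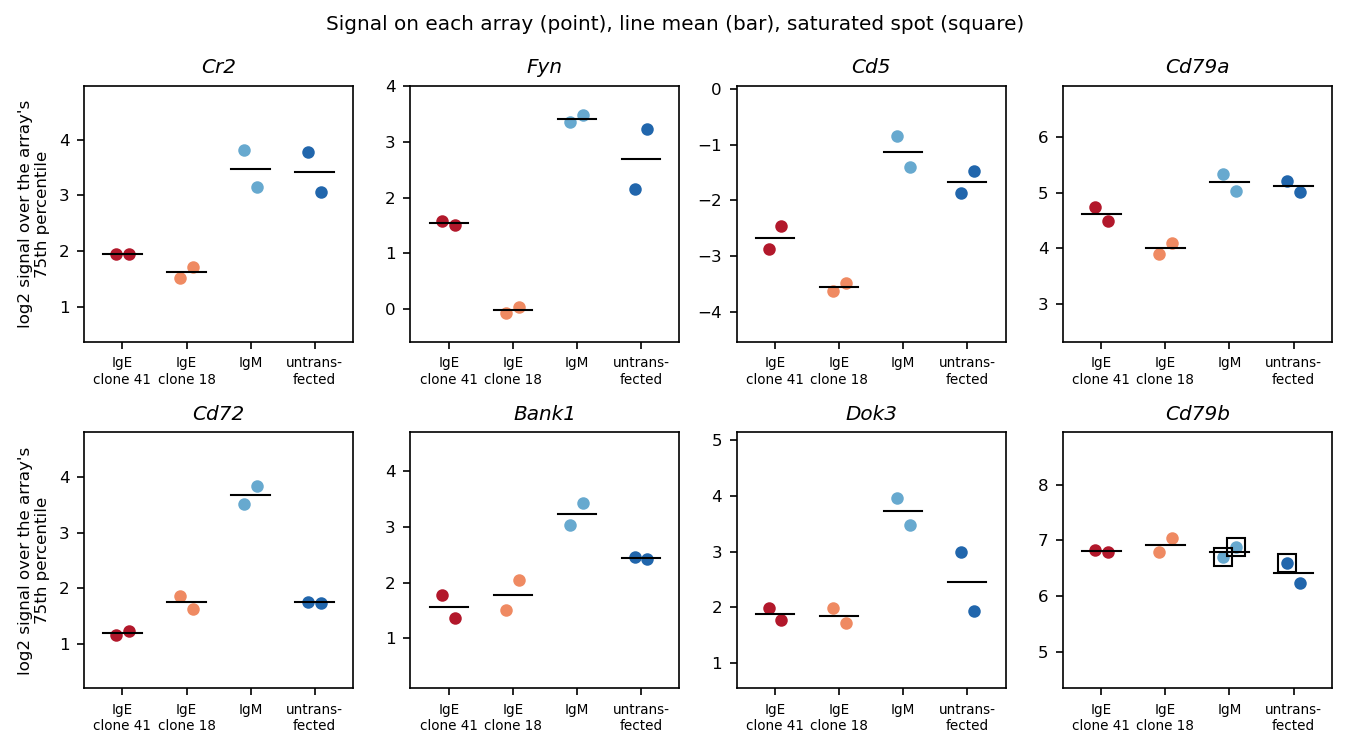
Scaled log2 signal (vertical axis, the array's 75th percentile at 0, the same span in each panel) of 8 genes in IgE clone 41, IgE clone 18, IgM and untransfected cells, with 1 point per array, a bar at the mean of the line and a square around saturated spots. Cr2, Fyn, Cd5, Cd79a and Bank1 lie lower on all 4 IgE arrays than on any control array, and Cd72 stands out in IgM cells at 3.52 and 3.85.

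By role, the 5 co-receptor genes had the lowest median difference, -1.24, the value of Cd72. In the IgE lines 3 of the 5 were called lower, where 5.59% of all genes were. Against untransfected cells, 1 of the 5 was called in clone 41 (median -0.81) and 2 in clone 18 (median -1.02). Against IgM cells, 3 were called in each clone (medians -1.54 and -1.86 in clones 41 and 18). Among 19 other co-receptor and inhibitory genes, 2 rose and 2 fell in the pooled comparison, with a median of 0.09. Cr2 encodes the complement receptors CD21 and CD35, which bind complement-tagged antigen. It read 1.94 and 1.94 in clone 41, 1.52 and 1.71 in clone 18, 3.81 and 3.15 in IgM cells, and 3.78 and 3.05 in untransfected cells. The highest IgE array was more than 1 log2 unit under the lowest control array. The difference between the IgE and control lines was -1.67 ± 0.22 (SE), a 3.18-fold lower signal (adjusted p = 0.00364). Cr2 was the 1 gene of the 32 called lower in each clone against each control line, a rule that 1.88% of all genes met, with 1.05% called higher in all 4. Against IgM and untransfected cells, clone 41 differed by -1.54 and -1.47 (adjusted p = 0.0287 and 0.0405) and clone 18 by -1.86 and -1.80 (adjusted p = 0.0128 and 0.0168). The IgM and untransfected lines differed from each other by 0.07 (95% interval -0.67 to 0.81).

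The 2 probes for Cr2 lie on the minus strand of chromosome 1 (build mm9), at chr1:196965532-196965591 and chr1:196963012-196963071, and do not overlap. The 30 bases that open each are shown because these separate stretches of the transcript gave the same result.
Cr2 first probe: tggcctacagattgttcttgtgatatttca
Cr2 second probe: catgacaataatggactagaactctgaact
The first, which stands for the gene above, differed by -1.67 and the second by -1.49 ± 0.17 between the IgE and control lines (adjusted p = 0.00216 in a fit of every probe). Both were called.

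Cd81 encodes a tetraspanin that sits beside CD21 in the membrane. It lay between 5.62 and 5.95 on all 8 arrays and differed by 0.08 (95% interval -0.17 to 0.34, adjusted p = 0.636). The IgM arrays were the lowest at 5.62 and 5.77, and Cd81 was not called in any of the 7 comparisons.

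Cd5 encodes an inhibitory receptor of T cells and of the B-1 type of B cell. Its signal was low throughout, at -2.88 and -2.47 in clone 41, -3.64 and -3.48 in clone 18, -0.85 and -1.41 in IgM cells, and -1.87 and -1.47 in untransfected cells. All 4 IgE arrays were below all 4 control arrays, and clone 18 was the lowest line. The pooled difference was -1.72 ± 0.19, or 3.29-fold (adjusted p = 0.00167). Clone 18 was lower than either control line, with log2 differences of -2.43 from IgM cells and -1.89 from untransfected cells (adjusted p = 0.00241 and 0.00787). Clone 41 differed by -1.55 from IgM cells (adjusted p = 0.0161) and by -1.0 from untransfected cells, which did not pass (adjusted p = 0.0806). Of the 7 T cell markers, 5 were tested. Their summed linear signal, at 4.16 to 5.62 on the IgE arrays and 3.97 to 5.11 on the control arrays, overlapped between the groups. Of the 5, 1 was called lower in the IgE lines, and 1 was called higher in IgM than in untransfected cells.

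Cd72, whose product is an inhibitory receptor for CD100, was a gene of the IgM line. It read 1.16 and 1.23 in clone 41, 1.87 and 1.64 in clone 18, 3.52 and 3.85 in IgM cells, and 1.76 and 1.74 in untransfected cells. Both IgM arrays were far above the other 6, and the clone 18 and untransfected arrays overlapped. The pooled difference was -1.24 ± 0.13 (adjusted p = 0.00141). The clones differed from IgM cells by -2.49 and -1.93, and from untransfected cells by -0.55 and 0.01 (adjusted p = 0.139 and 0.98), for clone 41 and clone 18 in that order. IgM cells exceeded untransfected cells by 1.94 ± 0.18, or 3.83-fold (adjusted p = 0.00428). In fits of 2 groups of 4 arrays, without line means or with the line as a random block, the pooled call of Cd72 ended (adjusted p up to 0.141).

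The probes for Cd72 (mm9, minus strand, chr4:43460607-43460666 and chr4:43460596-43460655) are shifted by 11 bases and share 49, so their agreement is close to a repeat of 1 measurement. Their opening stretches show the overlap, with the bases that both printed stretches hold in capitals.
Cd72 probe 1: tgagtggatggATGGCCCGGAGCCAGCCAG
Cd72 probe 2: ATGGCCCGGAGCCAGCCAGgcagttttatt
They differed by -1.33 and -1.24 between the IgE and control lines.

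Cd22, the sialic acid-binding inhibitory receptor of B cells, ranged from 0.03 to 0.60 on the IgE arrays and from 0.60 to 1.79 on the control arrays. Its difference of -0.84 did not pass (adjusted p = 0.0847). Untransfected replicate 1 was the highest array at 1.79 and replicate 2 the lowest control at 0.60. Without untransfected replicate 2, Cd22 was called lower.

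The changes of the 2 receptor chains cannot be set against each other, because Cd79b was saturated on control arrays. Cd79a, which encodes Ig-alpha, read 4.75 and 4.5 in clone 41, 3.90 and 4.10 in clone 18, 5.34 and 5.04 in IgM cells, and 5.22 and 5.02 in untransfected cells. All IgE arrays were below all control arrays, with clone 18 lowest. The pooled difference was -0.84 ± 0.14, a 1.79-fold lower signal that was short of 2-fold (adjusted p = 0.00842). Clone 18 alone was called, at -1.19 against IgM cells and -1.12 against untransfected cells (adjusted p = 0.012 and 0.0175). The call against untransfected cells was lost with no filter on dim probes, in the authors' deposited table, and with a gene's probes averaged. Clone 41 differed by -0.56 and -0.49 (adjusted p = 0.14 and 0.2). The difference between the clones was 0.63 (95% interval 0.16 to 1.09, adjusted p = 0.585).

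The probe that stands for Cd79a lies 3' of the other (mm9, plus strand, chr7:25686823-25686882), and 30 of its bases are shown with a polyadenylation signal, AATAAA, in capitals. The 60 bases of the other probe span 258 bases of the genome (chr7:25684357-25684614), so it crosses an exon junction.
Cd79a 3' probe: acttaagtgatAATAAAtccttcccaaagc
Cd79a junction probe: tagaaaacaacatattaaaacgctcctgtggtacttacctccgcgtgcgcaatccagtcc
The junction probe differed by -0.62 ± 0.19 (adjusted p = 0.0678), in the same direction as the 3' probe at -0.84, and its difference of -0.82 between clone 18 and IgM cells did not pass (adjusted p = 0.11).

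Cd79b, which encodes Ig-beta, read 6.83 and 6.79 in clone 41, 6.80 and 7.05 in clone 18, 6.71 and 6.88 in IgM cells, and 6.60 and 6.23 in untransfected cells. The arrays of the clones and of IgM cells overlapped, and both untransfected arrays were below the other 6. Its spot was saturated on 3 arrays, both of IgM cells and untransfected replicate 1, so those readings are lower limits of the signal. The difference of 0.26 ± 0.14 did not pass (adjusted p = 0.229), and it became -0.02 with quantile normalization and -0.08 in the authors' deposited table.

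Among the kinases, Fyn was the 1 of 5 called. FYN is a Src family kinase that phosphorylates receptor tails in T cells and, beside LYN and BLK, in B cells. The gene read 1.58 and 1.5 in clone 41, -0.08 and 0.03 in clone 18, 3.35 and 3.49 in IgM cells, and 2.16 and 3.24 in untransfected cells. All IgE arrays were below all control arrays, and the clones lay apart from each other by more than their arrays did. The pooled difference of -2.30 ± 0.24, a 4.92-fold lower signal, had the largest size among the 32 genes (adjusted p = 0.00133). Clone 18 was 10.9-fold lower than IgM cells and 6.59-fold lower than untransfected cells (adjusted p = 0.00144 and 0.00466). Clone 41 was 3.68-fold lower than IgM cells (adjusted p = 0.0182), and its difference of -1.16 from untransfected cells did not pass (adjusted p = 0.1).

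The level of Fyn in clone 41 exceeded that in clone 18 by 1.56 ± 0.33 on the log2 scale, with a 95% interval of 0.77 to 2.36 and an adjusted p of 0.241. None of the 32 genes was called between the clones, where 0.355% of all genes were (0.175% higher and 0.18% lower in clone 41). At an unadjusted p under 0.05, 4 of the 32 differed, against 1165 of 19975 over all genes: Cd79a, Cd5 and Fyn with the higher level in clone 41, and Cd72 with the lower. When either untransfected array was left out, Fyn was called between the clones, as the 1 gene of the 32. Fyn has 1 probe here (mm9, plus strand, chr10:39284572-39284631), whose opening bases are given to fix which stretch of the transcript was read.
Fyn probe: agcgaactgtgattcgttcttgaaacttag

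Blk, a Src family kinase largely confined to B cells, ranged from -1.20 to -0.79 on the IgE arrays and from -0.33 to 0.08 on the control arrays. The groups did not overlap, and the difference of -0.82 ± 0.14 was short of 2-fold (adjusted p = 0.0105). Lyn, the main Src kinase of B cells, differed by 0.28 (adjusted p = 0.313), and its arrays overlapped at -1.57 to -0.94 in the IgE lines and -1.77 to -1.15 in the control lines. Btk, the Tec family kinase that activates phospholipase C gamma 2, differed by 0.47 (adjusted p = 0.144). So of the 3 Src kinase genes, 1 was called lower, 1 was lower by less than 2-fold and 1 did not pass.

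The promoter windows of Cr2, Fyn, Cd5 and Cd79a are given because these genes were called in at least 2 of the 4 comparisons of a clone with a control line, including at least 1 against untransfected cells. Each is RefSeq sequence on GRCm38.p6 from 250 bases before to 50 after the start of the gene, and capitals mark letters found by a search on both strands for 4 motifs of B cell factors: CAGGTG (an E-box), GGAAGT (an ETS core), the EBF palindrome (TCCC and GGGA with any 2 bases between them) and ATGCAAAT (the octamer).
Cr2 promoter, chr1:195176670-195176969, minus strand: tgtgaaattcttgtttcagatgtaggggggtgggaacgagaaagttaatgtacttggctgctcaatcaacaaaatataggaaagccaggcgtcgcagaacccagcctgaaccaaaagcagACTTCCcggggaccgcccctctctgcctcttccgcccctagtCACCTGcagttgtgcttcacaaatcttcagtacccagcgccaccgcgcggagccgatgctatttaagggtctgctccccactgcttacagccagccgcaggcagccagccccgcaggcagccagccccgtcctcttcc
Fyn promoter, chr10:39369549-39369848, plus strand: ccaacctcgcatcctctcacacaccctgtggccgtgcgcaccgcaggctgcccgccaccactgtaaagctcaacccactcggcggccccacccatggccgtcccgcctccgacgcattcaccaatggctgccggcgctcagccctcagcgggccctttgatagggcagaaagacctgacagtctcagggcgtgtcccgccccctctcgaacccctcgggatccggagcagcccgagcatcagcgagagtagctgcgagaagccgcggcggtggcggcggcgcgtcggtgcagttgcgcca
Cd5 promoter, chr19:10738925-10739224, minus strand: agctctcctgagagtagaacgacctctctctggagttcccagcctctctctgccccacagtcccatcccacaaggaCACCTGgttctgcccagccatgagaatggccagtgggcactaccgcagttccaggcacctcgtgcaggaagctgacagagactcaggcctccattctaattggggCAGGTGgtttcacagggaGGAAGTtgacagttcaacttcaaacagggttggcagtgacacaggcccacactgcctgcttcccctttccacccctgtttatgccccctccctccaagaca
Cd79a promoter, chr7:24897247-24897546, plus strand: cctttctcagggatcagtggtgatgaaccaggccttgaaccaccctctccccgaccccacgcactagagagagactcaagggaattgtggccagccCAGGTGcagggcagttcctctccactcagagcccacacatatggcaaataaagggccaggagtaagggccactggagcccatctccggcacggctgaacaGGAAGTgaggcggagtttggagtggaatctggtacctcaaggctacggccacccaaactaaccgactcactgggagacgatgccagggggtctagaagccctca
The windows of Cr2, Cd5 and Cd79a held 1, 2 and 1 E-boxes and 1 ETS core each, and that of Fyn held none of the 4 motifs. Neither the EBF palindrome nor the octamer had an exact match in any of the 4 windows, and sites that differ from these letters were not searched for. Among 32851 promoter windows of this length, 6640 held CAGGTG and 7809 GGAAGT (23.8%), and 0.904% held the palindrome and 1.74% the octamer. Over the 35 windows of the 27 genes of this group that have one, 13 held CAGGTG, 20 held GGAAGT, 2 the palindrome and 2 the octamer.

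Bank1 and Dok3 were the called adaptors, 2 of 8. Bank1 encodes a B cell scaffold that binds LYN and the IP3 receptor. It read 1.77 and 1.36 in clone 41, 1.51 and 2.04 in clone 18, 3.03 and 3.44 in IgM cells, and 2.46 and 2.42 in untransfected cells. No IgE array reached a control array. The pooled difference was -1.17 ± 0.18, or 2.24-fold (adjusted p = 0.00718), and its second probe gave -1.13. Bank1 was called against IgM cells in both clones (-1.67 and -1.46 in clones 41 and 18), and in neither against untransfected cells (-0.87 and -0.66, adjusted p = 0.109 and 0.159).

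Dok3 encodes an inhibitory adaptor that brings the phosphatase SHIP1 to the receptor. It read 1.98 and 1.76 in clone 41, 1.98 and 1.71 in clone 18, 3.97 and 3.47 in IgM cells, and 2.99 and 1.93 in untransfected cells. The clones overlapped with untransfected replicate 2, and IgM cells were the highest line. The pooled difference of -1.24 ± 0.26 passed (adjusted p = 0.0206), but the clones differed from untransfected cells by -0.60 and -0.62 (adjusted p = 0.382 and 0.319). Its call ended when any 1 of 6 arrays was left out: either array of clone 41 or of clone 18, IgM replicate 1, or untransfected replicate 1. Without the last of these the difference was -0.97 and under 2-fold, and without the others the adjusted p was 0.0579 to 0.0795.

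Blnk, the scaffold between Syk and phospholipase C gamma 2, was bright in every line, at 5.53 to 5.94 on the IgE arrays and 6.35 to 6.71 on the control arrays. The groups did not overlap, and the measured difference was -0.68 ± 0.14 (adjusted p = 0.0178). Both IgM spots were saturated, so the true difference may be larger: clone 41 was at least 1.65-fold lower than IgM cells (adjusted p = 0.0694) and clone 18 at least 1.83-fold lower (adjusted p = 0.0332). Pik3ap1, which encodes the PI3-kinase adaptor BCAP, differed by -1.06 (adjusted p = 0.0852), with untransfected cells split at 0.46 and -1.26. Without untransfected replicate 2, Pik3ap1 was called lower, also in each clone against each control line. The other 4 adaptors did not pass: Lat2 at 0.15, Grb2 at 0.04, Dapp1 at 0.00 and the actin-binding LYN substrate gene Hcls1 at 0.21 (adjusted p from 0.458 to 0.986).

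**Figure D2:**
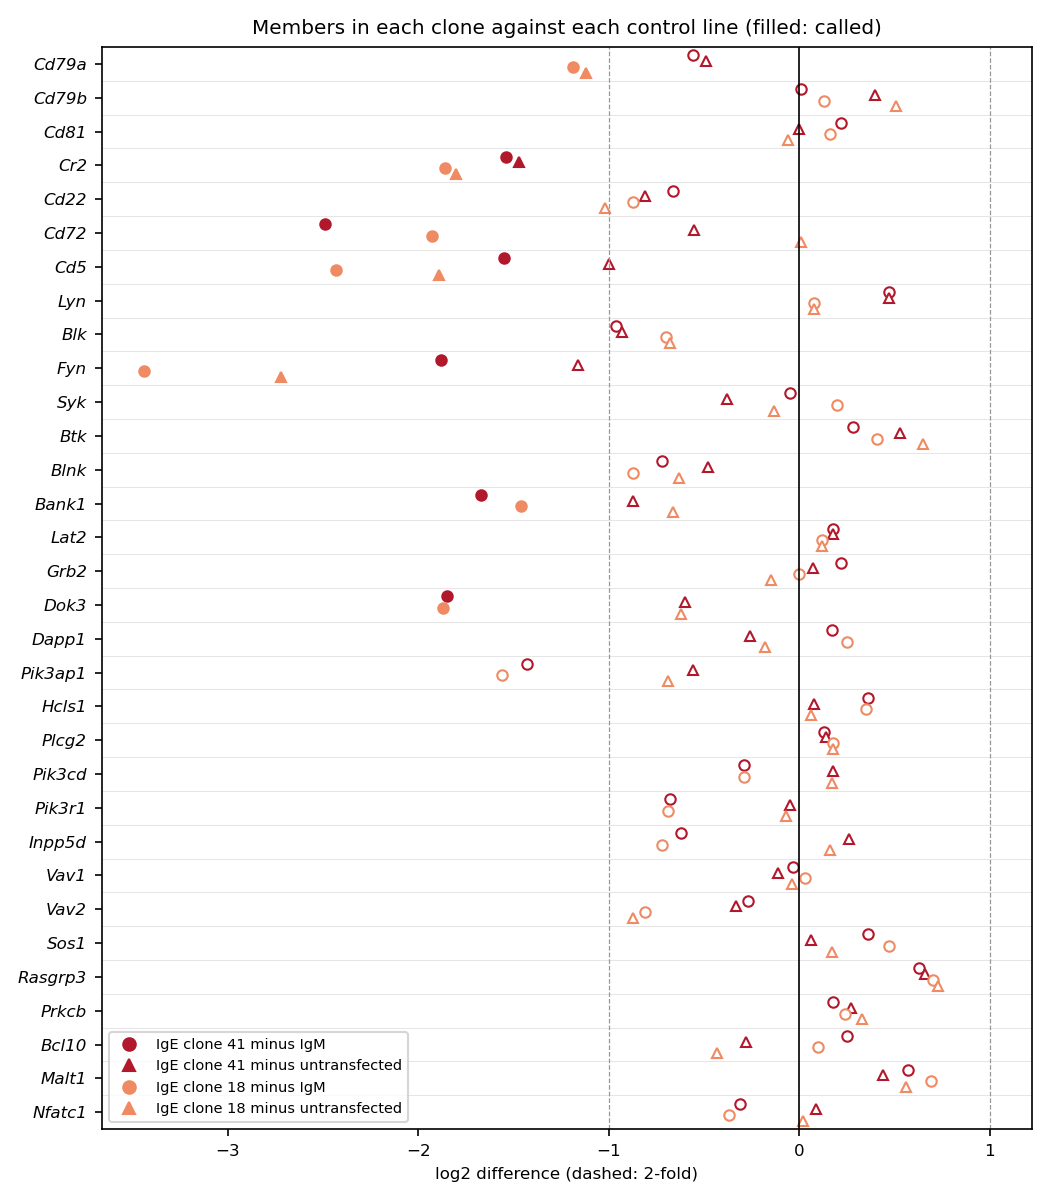
Log2 difference (horizontal axis, dashed lines at 2-fold) of the 32 genes, in the order of their roles, for IgE clone 41 and IgE clone 18, each against IgM cells (circles) and against untransfected cells (triangles), with filled marks for called differences. All filled marks lie below 0, Cr2 is the 1 gene with 4 of them, and Cd72, Bank1 and Dok3 are filled against IgM cells only.

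Set against each control line in turn, the clones shared most calls against IgM cells. Clone 41 had 6 of 32 genes called against IgM cells, where 7.39% of all genes were called (4.73% lower, 2.66% higher), and 1 against untransfected cells (5.6%, with 3.18% lower and 2.42% higher). Clone 18 had 7 called against IgM cells (9.15% of all genes, 5.75% lower and 3.4% higher) and 4 against untransfected cells (7.69%, with 4.35% lower and 3.34% higher). Every one of these calls was a lower signal in the clone. Clone 18 and clone 41 shared 6 calls against IgM cells, Cr2, Cd5, Cd72, Fyn, Bank1 and Dok3, and clone 18 added Cd79a. The comparisons with 1 control line share its arrays, so their overlap is not a repeat of the result.

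Counts of this size turn on single arrays. Clone 41 against IgM cells kept 2 calls without either of its arrays or without IgM replicate 1, and 3 without IgM replicate 2. Clone 18 against IgM cells kept 3 without its replicate 1, and 4 without its replicate 2 or IgM replicate 1. Against untransfected cells, clone 18 kept 1 without either of its arrays, and clone 41 had 0 without any 1 array of either clone and 4 without untransfected replicate 2. The rule of all 4 comparisons was met by 0 genes without any 1 array of either clone or IgM replicate 1. Without untransfected replicate 1 it was met by Fyn in place of Cr2, and without untransfected replicate 2 by Cr2 and Pik3ap1.

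The IgM line was the highest on both of its arrays for 9 of the 32 genes, or 28.1%, where 9.1% of all genes had this pattern. These were Cd72, Cd5, Fyn, Blnk, Bank1, Dok3, the SHIP1 gene Inpp5d, and the PI3-kinase subunit genes Pik3cd and Pik3r1. It was the lowest on both arrays for Cd81 and Malt1, 6.25% of the genes against 7.78% of all. By the test, Cd72 was the 1 gene of the 32 called between IgM and untransfected cells, where 2.04% of all genes were called, 1.23% higher and 0.811% lower in IgM cells. The next largest differences between these lines were 1.25 for Dok3 (adjusted p = 0.179), 0.89 for Inpp5d and 0.87 for Pik3ap1 (adjusted p = 0.403 and 0.497). Without untransfected replicate 1, these 3 were called beside Cd72, and without untransfected replicate 2 Fyn was called beside it.

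None of the 4 phosphoinositide enzymes was called. Plcg2, the phospholipase that makes IP3 and diacylglycerol, ranged from 6.61 to 6.70 on the IgE arrays and from 6.40 to 6.59 on the control arrays, where 2 of its spots were saturated. The measured values did not overlap, but the difference of 0.16 turned to -0.13 with quantile normalization. Pik3r1, the regulatory p85 alpha subunit, was lower than in IgM cells, at -0.68 in clone 41 (adjusted p = 0.0476) and -0.69 in clone 18 (adjusted p = 0.0395) on the log2 scale, under 2-fold. Against untransfected cells it differed by -0.05 and -0.07. Pik3cd and Inpp5d differed by -0.06 and -0.23 in the pooled comparison (adjusted p = 0.74 and 0.629).

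Of the exchange factors, Rasgrp3, which loads Ras with GTP in response to diacylglycerol, was higher in the IgE lines. It ranged from 3.86 to 4.17 on the IgE arrays and from 3.02 to 3.56 on the control arrays, with no overlap. The difference of 0.68 ± 0.16, or 1.6-fold, passed the adjusted p (0.0308) and not the fold. The clones differed from either control line by 0.63 to 0.73 (adjusted p = 0.103 to 0.154). Vav1, Vav2 and Sos1 differed by -0.04, -0.57 and 0.27 (adjusted p from 0.317 to 0.87).

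Of the 4 genes of protein kinase C, its route to NF-kB and NFAT, none was called and 1 passed by adjusted p. Nfatc1 is counted here by the probe that stands for it, and its other probe is described below. Malt1, a paracaspase that leads to NF-kB, read 1.74 to 1.88 on the IgE arrays and 1.12 to 1.36 on the control arrays. It was higher by 0.56 ± 0.11, or 1.48-fold (adjusted p = 0.014). Bcl10, an adaptor of the same route, differed by -0.09 (adjusted p = 0.797). Prkcb, the protein kinase C isoform of B cells, was saturated on 5 arrays, the 4 of the control lines and clone 41 replicate 2, and its difference of 0.25 turned to -0.09 with quantile normalization.

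Groups that do not overlap were counted over all 8 arrays. All 4 IgE arrays were below all 4 control arrays for 7 of the 32 genes, or 21.9%, against 10.5% of all genes. These were Cr2, Cd5, Cd79a, Fyn, Blk, Blnk and Bank1. They were above for 4, or 12.5%, against 14.4% of all genes, so the upward count is near the background. These 4 were Malt1, Rasgrp3, Plcg2 and Prkcb, of which Plcg2 and Prkcb changed sign with the normalization. The 4 control spots of Prkcb and 2 of those of Plcg2 were saturated, so their separation cannot be read from these arrays.

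Several probes were tested for 12 of the genes, and for 11 of these they fell on the same side of the call. The exception was Nfatc1, which encodes an NFAT transcription factor that calcium brings to the nucleus. Over all genes with several probes, 8.01% were split in this way. The probe with the higher mean, which stands for the gene, read 2.34 and 2.06 in clone 41, 2.07 and 2.20 in clone 18, 2.39 and 2.63 in IgM cells, and 2.47 and 1.75 in untransfected cells. Its lines overlapped, and the difference was -0.14 ± 0.19 (adjusted p = 0.641 in the fit of every probe). The other probe lies on the same strand of chromosome 18, 41775 bases upstream within the genome. It read 1.60 and 1.22 in clone 41, 1.08 and 1.17 in clone 18, 2.68 and 2.73 in IgM cells, and 2.27 and 2.06 in untransfected cells. There all IgE arrays were below all control arrays, and the probe was called at -1.17 ± 0.14 (adjusted p = 0.00224).

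Within each array, the upstream probe of Nfatc1 exceeded the downstream one by -0.90 ± 0.13 in the IgE lines and by 0.12 ± 0.24 in the control lines (SD, n = 4 arrays each). The difference was -1.02, and no p-value is given, since this pair of probes was singled out after its values were seen. The upstream probe was called with the processing as described and under all 17 other settings in which every probe was fitted, at -1.07 to -1.26.

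**Figure D3:**
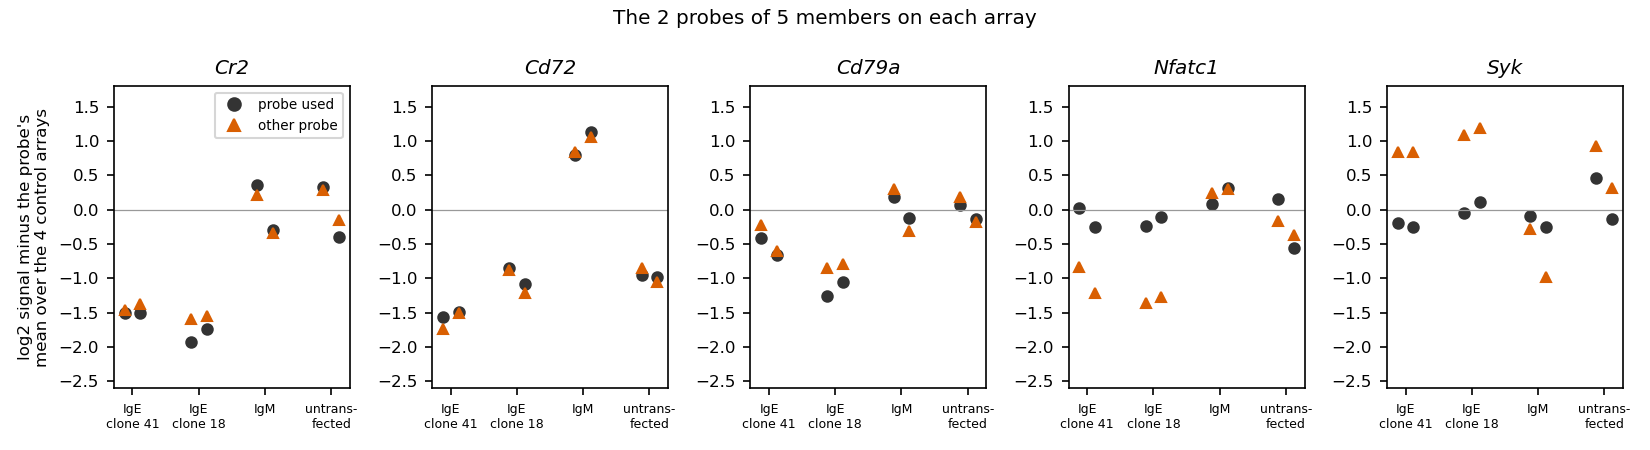
Log2 signal minus the probe's mean over the 4 control arrays (vertical axis) for the 2 probes of Cr2, Cd72, Cd79a, Nfatc1 and Syk on each array of IgE clone 41, IgE clone 18, IgM and untransfected cells. The probes of Cr2, Cd72 and Cd79a move together, whereas the second probe of Nfatc1 lies lower on all 4 IgE arrays and that of Syk lies lowest in IgM cells.

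Syk, the kinase that docks on the receptor chains, differed by -0.09 between the IgE and control lines by the probe that stands for it (adjusted p = 0.722). The second probe (mm9, plus strand, chr13:52738924-52738983) lies 5' of the first (chr13:52744088-52744147) and was dim. It read -2.75 and -2.74 in clone 41, -2.50 and -2.39 in clone 18, -3.86 and -4.56 in IgM cells, and -2.65 and -3.26 in untransfected cells. The IgM arrays were the lowest, and untransfected replicate 1 lay among the IgE arrays. Its pooled difference of 0.99 ± 0.21 was just short of 2-fold (adjusted p = 0.0221). In clone 41 it exceeded IgM cells by 1.47 (adjusted p = 0.0293) and in clone 18 by 1.77 (adjusted p = 0.0134), and both were called. The pooled value was 1.13 and called with quantile normalization, and 0.52 and not called with normexp background correction.

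Around these 33 genes, 127 of 137 other genes of the pathway were tested, in 6 lists. The lists were chosen by known function, with earlier results of these data known. Of the 127, 3 were called higher and 10 lower, which is near the 8.99% called over all genes. Their median difference was -0.13. Among 19 co-receptor and inhibitory genes, 2 rose and 2 fell. Btla, an inhibitory receptor of lymphocytes, was higher by 1.79, but that rested on untransfected cells: the clones differed by 4.0 and 3.47 from untransfected cells and by 0.11 and -0.43 from IgM cells. Cd24a, a small surface glycoprotein of B cells, fell by 1.06 on the log2 scale (adjusted p = 0.00931). Fcgr2b, the inhibitory IgG receptor, rose by 1.01 (adjusted p = 0.00375). It was called in clone 18 against both controls, and in clone 41 it was higher by 0.85 and 0.88, short of 2-fold.

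Of 26 other kinases and adaptors, 5 fell and 0 rose, where 5.59% of all genes fell. At an unadjusted p under 0.05 there were 13, against 6905 of 19975 over all genes. Cblc, a ubiquitin ligase of the CBL family, was lower at a log2 difference of -6.51 ± 0.17 (adjusted p = 4.86e-06), far more than any of the 33 genes. It was also the 1 gene of the 127 called between the clones, at 1.84 with clone 41 the higher (adjusted p = 0.0459). Pag1, a membrane adaptor that holds the kinase CSK, was above background on no IgE array and was at least 1.06-fold lower.

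Each branch downstream had 1 gene called in the pooled comparison. The PI3K and AKT branch had 1 of 18 lower, Foxo1, a transcription factor that AKT inactivates, at -1.14 ± 0.21 (adjusted p = 0.0125). The calcium and NFAT branch had 1 of 17 lower, the calcineurin subunit gene Ppp3cc at -1.15 ± 0.29 (adjusted p = 0.0387). The RAS and MAPK branch had 1 of 28 higher, the ERK phosphatase gene Dusp5 at 1.37 ± 0.37 (adjusted p = 0.0478). The PKC and NF-kB branch had 1 of 19 lower, Prkca at -1.08 ± 0.13 (adjusted p = 0.00286). At an unadjusted p under 0.05, these branches held 5, 8, 8 and 7 genes, against 6905 of 19975 over all genes. Nothing is read from these counts. In clone 41 against either control line, and in clone 18 against untransfected cells, Foxo1 was not called lower and Dusp5 not called higher. Ppp3cc was not called lower in clone 41 against IgM cells, nor Prkca in clone 41 against untransfected cells.

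**Figure D4:**
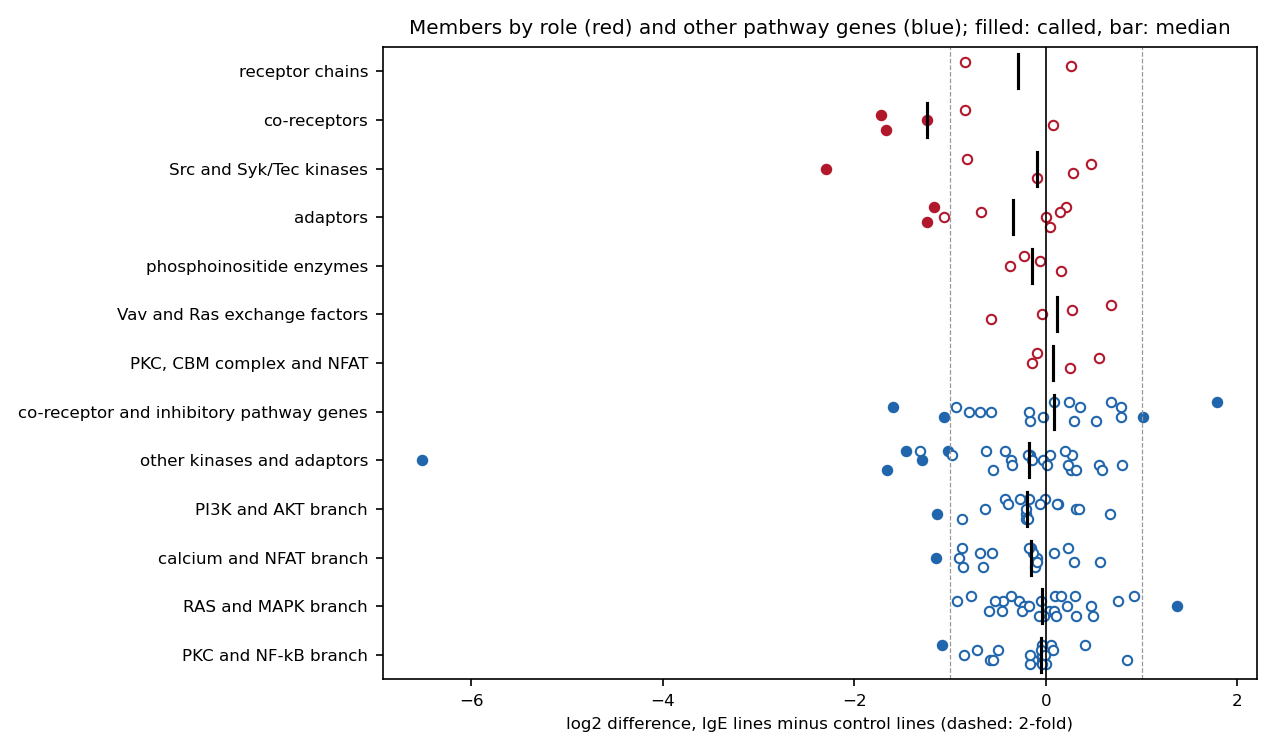
Log2 difference between the IgE and control lines (horizontal axis, dashed lines at 2-fold) for the 32 genes by role (red) and for 127 other pathway genes by list (blue), with 1 point per gene, filled where called, and a bar at the median of each group. The co-receptors have the lowest median, -1.24, and the medians of the other groups lie between -0.34 and 0.11.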

How the data were processed

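Total RNA was labelled with 1 dye and hybridised to Agilent's mouse design 028005. Per the file headers, spots were read with Agilent Feature Extraction 10.7.3.1 on build mm9, and the processed intensity was background-subtracted and not normalized between arrays. The deposited value table of the authors is in log2 units, with column medians of 5.90 to 5.92. It ranked probes as the median pixel intensity did, and its normalization is not given in the sources used here. The slide and its scan time were shared by all arrays. Lines occupied separate slide columns, and the effects of column and line cannot be told apart. In every line the replicate number was the slide row.

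For each array, log2 of the processed intensity was set relative to its 75th percentile. Control spots and outlier flags were left out. A probe needed to be well above background on both arrays of some line (29144 of 55681 were), and the probe with the highest mean stood for a gene. The means of the 4 lines were estimated together from the 8 arrays (limma 3.58.1, R 4.3.3), with two-sided tests and Benjamini-Hochberg adjustment. The fit was tested on simulated data. A gene saturated or below background in a whole line or side has only a bound. All genes of the group are named. Values on every array are given for those called in the pooled comparison or in at least 3 of the 4 pairs, for Cd79a and Cd79b, and for 2 probes added after their values were seen. Of each pathway list, up to 3 called genes with the largest change are named, and Fcgr2b was added; some genes are not reported here. The members and lists were chosen with earlier results of these data known. Same-numbered arrays correlated from -0.02 to 0.32 in their deviations, over 0.1 in 4 of 6 pairs of lines and not in all, so the fit has no block, and a block on the number (the slide row) was an alternative. The 33 symbols matched a RefSeq table of GRCm38.p6, which also gave the promoters.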

Additional observations from a re-analysis of the deposited data

Results flagged for a closer look

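Cd72 stood out because the size of its difference depended on which control line the clones were set against. IgM cells exceeded untransfected cells by 1.94 ± 0.18 (SE, log2, limma adjusted p = 0.00428), in both arrays of each line. That value is also the difference between the effect against untransfected cells and the effect against IgM cells, in either clone.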

How the results depend on the processing

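Over 20 other settings, the 32 single-gene differences between the IgE and control lines kept their side of the call in 621 cases, lost a call in 12 (Dok3 in 10, Cd72 in 2) and gained one in 7. Cr2, Fyn, Cd5 and Bank1 were called in every setting. The difference of Cd5, a dim gene, ran from -1.86 to -1.01 over the settings, the latter close to the 2-fold line. With normexp, Cd5 was no longer called in clone 18 against untransfected cells. The pooled count of 6 was 4 in the 2-group fits (Cr2, Fyn, Cd5 and Bank1), 5 with no filter or the authors' deposited table, and 11 by adjusted p alone. With no filter on dim probes, the calls were 2 for clone 41 and IgM cells, 0 for clone 41 and untransfected cells, 2 for clone 18 and untransfected cells, and 0 in all 4 comparisons. The authors' deposited table gave 0 for clone 41 and untransfected cells and 0 in all 4. By adjusted p alone, clone 41 had 2 against untransfected cells, and 16 probes passed in place of 10. Leaving out 1 array at a time gave 5 to 8 calls in the pooled comparison, 2 to 7 for clone 41 and IgM cells, 0 to 4 for clone 41 and untransfected cells, 3 to 8 for clone 18 and IgM cells, 1 to 6 for clone 18 and untransfected cells, 1 to 4 for IgM and untransfected cells, 0 to 1 between the clones, 0 to 2 in all 4 comparisons, and 9 to 12 probes. The replicate number as a block left the pooled count at 6 and moved no count here by over 1.5 times. Over all genes, 679 rose and 1117 fell, against 421 and 608 with normexp, 466 and 620 with the stricter filter, 434 and 683 in the authors' table, and 1671 and 1892 by adjusted p alone. The cause of these changes was not tested. With 2 arrays per line, the number of arrays limits the precision, and spots saturated on the control arrays (Cd79b, Blnk, Plcg2 and Prkcb) limit what their differences show.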
